A study of Mus musculus with 2 samples.

Results

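The Zic genes encode zinc finger transcription factors that stand next to the Gli proteins of the Hedgehog pathway in sequence. They lie in the genome as divergent pairs, and the genes are best known for work in the dorsal neural tube, the neural crest, the meninges, the cerebellar granule layer and the medial parts of the forebrain, such as the septum and thalamus. Zic1 is needed for the growth of cerebellar granule precursors and Zic4 is its close neighbour. Zic2 is a gene of forebrain midline formation and Zic5, its neighbour, acts in neural crest and neural tube closure.

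Chromatin accessibility over Zic1, Zic2, Zic4 and Zic5, 4 of the 21912 genes counted, was described in nuclei of the sham and the stroke mouse brain. The members were chosen with earlier results of these data known, for their fragments by library and cell class, so these levels are a description and no test was made on them. Single-nucleus ATAC-seq marks open chromatin by the sites where the Tn5 transposase inserts. It says nothing of transcript levels. The nuclei came from flash-frozen brains of young adult male wild-type C57BL/6J mice, without the olfactory bulbs and without the cerebellum, where Zic1 acts in granule precursors. The sham library pooled 4 whole brains after a sham operation in which the filament was inserted with no sustained occlusion, and the stroke library pooled the ipsilateral hemispheres of 4 brains at 48 h after transient occlusion of the middle cerebral artery by a filament, with reperfusion. Each condition was thus 1 library of pooled animals, and the part of the brain sampled (whole brain against 1 hemisphere) and the condition cannot be told apart. No difference between the libraries has a replicate check and no p-value is given. Intervals are exact 95% intervals for counting error only, a Poisson interval for a level and a conditional binomial one for a ratio.

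Of the barcodes called as cells, 6817 of 6979 in sham and 5054 of 8740 in stroke had over 20% of their fragments in peaks and were kept, with a median of 10353 and 9898 fragments each. The nuclei left out were 162 in sham and 3686 in stroke. Of the kept fragments, 16.27% in sham and 14.83% in stroke lay near a transcription start site, and 42 barcodes occurred in both libraries. Nuclei were put into 14 classes by the fragments over marker genes in each nucleus and its nearest neighbours, with the Zic loci left out of the neighbour search (11.5% of sham and 11.04% of stroke nuclei had no class), and classes are called astrocyte-like and so on. In the astrocyte-like nuclei the 13 astrocyte markers summed to 1437.0 fragments per 1000000 kept fragments of those nuclei in sham and 1345.0 in stroke, against 391.3 and 457.1 in all kept nuclei. The 13 markers of vascular and leptomeningeal cells (VLMC), the fibroblasts of the meninges and of larger vessels, summed to 507.7 and 710.4 in VLMC-like nuclei against 115.4 and 161.2 in all. These sums include the markers that set the classes. Markers held out of that step were 4.146-fold higher than in other nuclei for astrocyte-like and 4.246-fold for VLMC-like nuclei. The fold was 1.733 for ependymal-like nuclei and lowest, 1.314, for cortical and hippocampal glutamatergic nuclei. The VLMC-like nuclei were shallow, with a median of 2574 fragments. Ependymal-like nuclei (median 4306.5) and endothelial-like nuclei (4411) also lay well below the medians of the libraries.

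Zic1 and Zic4 lie on chromosome 9 (mm10), Zic1 on the minus strand with its start at 91365768 and Zic4 on the plus strand with its start at 91368972, 3204 bp away. Zic5 and Zic2 lie on chromosome 14, Zic5 on the minus strand with its start at 122465658 and Zic2 on the plus strand with its start at 122475384, 9726 bp away. A gene window was the gene body plus 2 kb upstream, and a locus was the span of a pair plus 2 kb on each side. Start sites were taken from RefSeq and gene bodies from GENCODE. The GENCODE body of Zic4 (9:91362413-91389348) begins before its RefSeq start, so the Zic4 window takes in the Zic1 start. The windows of Zic1 (9:91358058-91367810) and Zic4 (9:91360413-91389348) overlapped, and 94.93% of the Zic1 fragments in sham and 95.01% in stroke were also counted for Zic4. Values of these genes are therefore not separate measurements. Levels are given in CPM, the fragments in a window per 1000000 kept fragments of the same group of nuclei. The windows differ in length, so a level is compared within a gene and not between genes.

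Within 100 kb of each locus, the 300-base regions with the most Tn5 cut sites were ranked by their cut sites in all kept nuclei, and sequences outside annotated exons, 3 regions and 1 promoter, are printed here from the RefSeq genome GRCm38.p6, the same build as mm10. Capitals mark GGGCGG, the GC box bound by Sp factors. The chromosome 9 region was the most cut region of the Zic1-Zic4 locus outside the promoters. The 2 chromosome 14 regions were cut mostly in astrocyte-like nuclei. The Zic5 promoter is shown upstream of its first exon, from base -250 to base -20 relative to the start, on the minus strand (chr14:122465678-122465908). The others are given on the plus strand.
Zic5 promoter: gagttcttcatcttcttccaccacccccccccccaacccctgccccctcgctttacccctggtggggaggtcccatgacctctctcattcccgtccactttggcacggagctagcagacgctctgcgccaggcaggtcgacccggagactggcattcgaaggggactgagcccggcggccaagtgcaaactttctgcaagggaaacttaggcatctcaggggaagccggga
Zic1-Zic4 region 2 (chr9:91381414-91381713, intron of Zic4): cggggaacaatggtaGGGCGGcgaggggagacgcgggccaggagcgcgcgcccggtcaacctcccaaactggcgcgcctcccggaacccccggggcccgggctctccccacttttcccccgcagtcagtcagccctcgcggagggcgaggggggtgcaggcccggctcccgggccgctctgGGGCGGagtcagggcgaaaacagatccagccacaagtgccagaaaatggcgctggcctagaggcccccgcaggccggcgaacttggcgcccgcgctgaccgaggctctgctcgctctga
Zic2-Zic5 region 7 (chr14:122406765-122407064, intergenic): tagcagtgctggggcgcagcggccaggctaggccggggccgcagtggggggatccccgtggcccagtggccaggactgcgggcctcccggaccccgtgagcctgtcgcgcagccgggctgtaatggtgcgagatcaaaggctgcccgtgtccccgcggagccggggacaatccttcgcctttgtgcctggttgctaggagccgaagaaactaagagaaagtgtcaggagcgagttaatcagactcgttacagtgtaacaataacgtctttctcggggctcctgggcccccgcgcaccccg
Zic2-Zic5 region 8 (chr14:122453715-122454014, intergenic): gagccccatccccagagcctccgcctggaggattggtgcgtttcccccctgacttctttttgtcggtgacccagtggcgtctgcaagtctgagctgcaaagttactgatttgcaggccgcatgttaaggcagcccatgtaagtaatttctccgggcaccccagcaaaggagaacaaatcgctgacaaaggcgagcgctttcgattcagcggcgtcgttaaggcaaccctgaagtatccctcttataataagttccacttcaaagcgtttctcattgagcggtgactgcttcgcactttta
Region 2 of chromosome 9 held 2 GC boxes with 72.67% G and C. The chromosome 14 regions 7 and 8 held none, at 65.33% and 52.33%. Over the 300-base promoter windows of RefSeq (250 bases before to 50 after the start), Zic1 had 3 GC boxes, Zic5 had 1 and Zic4 had none. GGGCGG was found on either strand in 35.63% of 32817 promoters. CCTGCTG, the core of the reported Zic motif, was in 10.52% of them and TGGGTGG, the core of the Gli-type motif, in 9.306%. Neither was present in the promoter windows of Zic1, Zic4 and Zic5 or in the sequences above. Among the other regions described below, TGGGTGG occurred 1 time each in Zic1-Zic4 region 6 and region 7. The GC content of the promoter windows was 65.33% for Zic1, 62.67% for Zic5 and 46.0% for Zic4, against a median of 52.67% over all promoters.

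All 4 members were most open in non-neuronal classes, and the glutamatergic neurons of cortex and hippocampus and the striatal spiny projection neurons were among the classes with the lowest levels. For Zic1, VLMC-like nuclei had 38.57 CPM (95% interval 29.77 to 49.16, from 65 fragments), then choroid plexus epithelial-like nuclei 17.89 (12.94 to 24.09) and astrocyte-like nuclei 16.77 (14.37 to 19.47). The choroid plexus value joined 32.51 in sham and 2.556 in stroke. The interval of the VLMC-like nuclei lay apart from the next class, whereas the intervals of the choroid plexus and astrocyte classes overlapped. Other GABAergic neuron-like nuclei, those outside the spiny projection, Lhx6 and Adarb2 classes, had 10.7 (8.956 to 12.69). At the low end were the cortical and hippocampal glutamatergic class with 2.393 (1.94 to 2.919) and the Lhx6 class with 2.283 (1.33 to 3.655).

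Zic4 had the same leading class, in a window that shares fragments with that of Zic1. VLMC-like nuclei had 86.04 CPM (72.61 to 101.2), apart from ependymal-like nuclei at 36.8 (26.84 to 49.24) and astrocyte-like nuclei at 36.75 (33.14 to 40.64). Diencephalic glutamatergic nuclei followed with 30.82 (25.94 to 36.35), choroid plexus nuclei with 30.78 (24.17 to 38.64) and other GABAergic nuclei with 27.73 (24.87 to 30.84). The choroid plexus value joined 52.02 in sham and 8.518 in stroke, so its place in this order holds for the libraries together and not for each. The intervals of neighbours in this order overlapped, whereas that of the astrocyte-like nuclei lay above that of the other GABAergic nuclei. The lowest was the cortical and hippocampal glutamatergic class with 5.106 (4.434 to 5.851). With the Zic1 and Zic4 windows split midway between the start sites, VLMC-like nuclei still led on the Zic4 side, at 49.25 (39.23 to 61.06). Ependymal-like nuclei had 28.62 (19.94 to 39.8) there. These intervals overlapped, and the ratio was 1.721 (1.146 to 2.633).

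For Zic2 the order at the top was not resolved. VLMC-like nuclei had 35.6 (27.17 to 45.83), astrocyte-like nuclei 28.7 (25.52 to 32.16) and endothelial-like nuclei 22.24 (15.81 to 30.4), with overlapping intervals between neighbours. Diencephalic glutamatergic nuclei, a class named from thalamic markers, had 17.71 (14.06 to 22.01) and cortical and hippocampal glutamatergic nuclei 3.034 (2.521 to 3.62).

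Zic5 was highest in astrocyte-like nuclei by a margin within counting error, at 32.97 (29.55 to 36.66) against 29.67 (22.02 to 39.12) in VLMC-like nuclei. Ependymal-like nuclei had 23.71 (15.88 to 34.06) and endothelial-like nuclei 22.24 (15.81 to 30.4), apart from the next class, diencephalic glutamatergic nuclei, at 11.59 (8.678 to 15.15). Spiny projection nuclei had 1.939 (1.2 to 2.964). VLMC-like nuclei had the highest level of Zic1, Zic4 and Zic2 in each library. For Zic5 they led in sham, with 36.81 against 33.18 in astrocyte-like nuclei, and the astrocyte-like nuclei led in stroke, with 32.81 against 25.16, both within counting error.

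**Figure D1:**
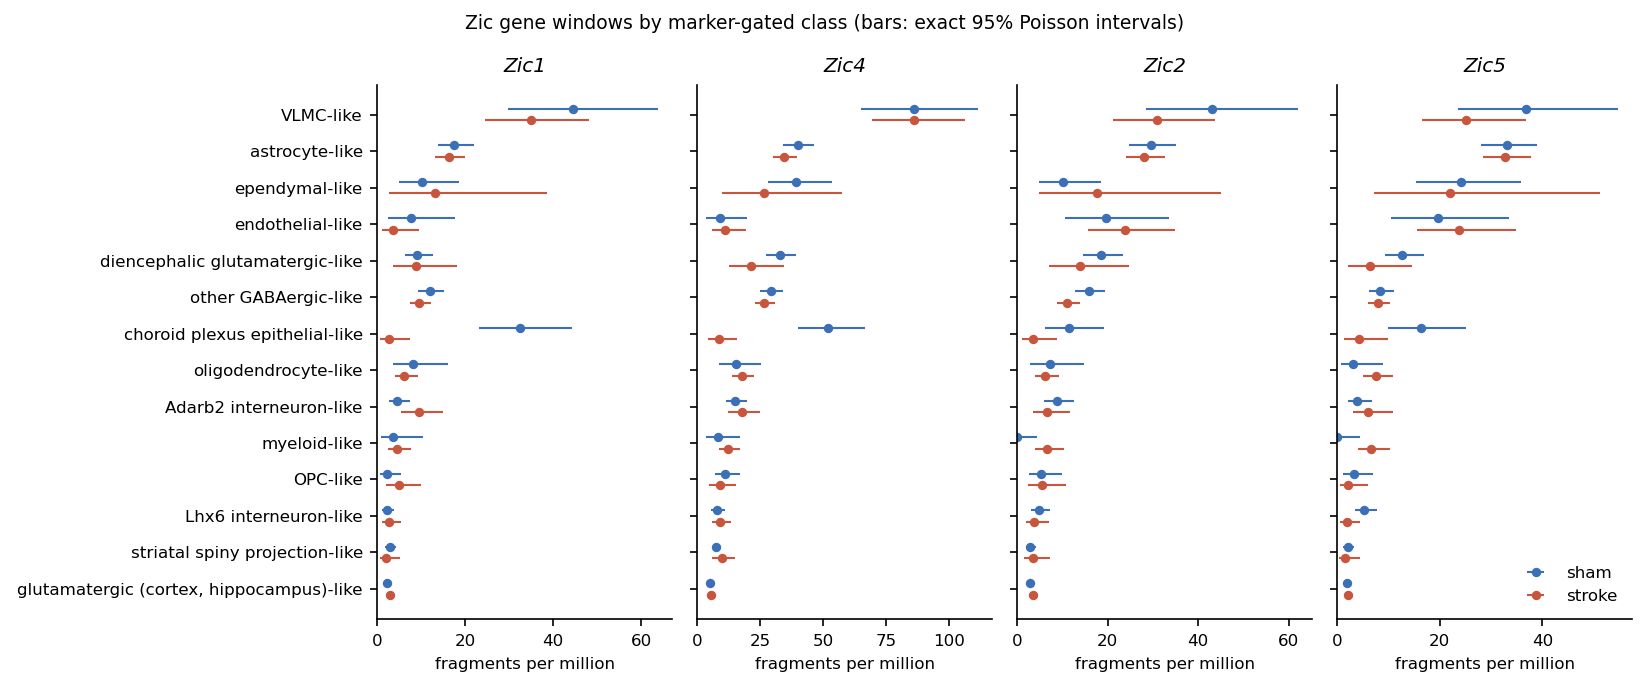
Fragments per 1000000 (horizontal axes, linear) over the windows of Zic1, Zic4, Zic2 and Zic5 in 14 marker-gated classes, in sham (blue) and stroke (red), with exact 95% Poisson intervals as bars. VLMC-like and astrocyte-like nuclei sit to the right in all 4 panels, and choroid plexus epithelial-like nuclei of sham lie to the right of those of stroke for Zic1, with 32.51 against 2.556 CPM.

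Against all other kept nuclei, 4 of 4 members were past 1.5-fold higher in VLMC-like nuclei, where 20.9% of 20980 genes were, and 4 of 4 in astrocyte-like nuclei, where 18.5% were. The members were selected on these levels, so the counts carry no further weight. The log2 differences in VLMC-like nuclei were 2.73 for Zic1, 2.61 for Zic4, 2.20 for Zic2 and 2.13 for Zic5. In astrocyte-like nuclei the chromosome 14 pair stood above the chromosome 9 pair, with 2.77 for Zic5, 2.17 for Zic2, 1.65 for Zic1 and 1.48 for Zic4.

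The class with the highest level depended on the barcodes and the gate used. When all called barcodes were used, the VLMC-like level of Zic1 was 0.693 of the choroid plexus level, and when each nucleus was gated by its own fragments alone it was 0.9886 of the astrocyte level. The corresponding ratio was 2.157 (1.445 to 3.248) over choroid plexus nuclei as gated here.

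Astrocyte-like nuclei held 8.171% of all kept fragments but 37.74% (34.56 to 40.99, exact binomial) of the 901 Zic5 fragments and 28.63% (25.89 to 31.49) of the 1034 Zic2 fragments. Their part was smaller at Zic1, with 21.76% (18.94 to 24.79) of 795, and at Zic4, with 19.92% (18.14 to 21.78) of 1903. VLMC-like nuclei, with 1.335% of all fragments, gave 8.176% of those at Zic1 and 5.549% of those at Zic5. Other GABAergic nuclei gave 16.6% at Zic1, 17.97% at Zic4, 15.76% at Zic2 and 11.1% at Zic5, from 9.769% of all fragments. The largest class, cortical and hippocampal glutamatergic nuclei, held 32.12% of all fragments and between 9.212% (Zic5) and 12.2% (Zic1) of those of the members.

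Over 21 profiles, each a class in a library with at least 1000000 fragments, Pearson's r of log2(CPM + 1) was 0.9342 between Zic2 and Zic5 and 0.869 between Zic1 and Zic4, the latter with windows split midway between the start sites. Across the pairs it ran from 0.7555 (Zic1 with Zic5) to 0.8394 (Zic4 with Zic2). The profiles share libraries and classes, so r is given as a description. Profiles of 17966 genes outside the Zic loci were compared with the sum of the Zic1-Zic4 and Zic2-Zic5 loci. The 10 most like that sum included Sp4, Abtb1, Nxn, Clybl, Tead1, Mknk2, Shoc2, Kctd9 and Prelid3b. Their r ran from 0.8883 for Sp4 to 0.8411 for Prelid3b. The median r over all 17966 genes was 0.04892 and the 95th percentile 0.609. Sp4 encodes a zinc finger factor that binds GC boxes and Tead1 a transcription factor of the Hippo pathway. Clybl encodes a mitochondrial lyase and lies beside Zic5 on chromosome 14.

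Along the loci, cut sites gathered at the starts of Zic1, Zic2 and Zic5 and at a few distal regions. None of the most cut regions lay at the Zic4 start. Some of these regions differed strongly between classes while others did not. Cut sites were also scaled to 1000000 fragments of the group and are given as cut-site CPM. Both libraries are summed unless one is named, and a summed value need not hold in each library. A fragment has a cut site at each end, so cut sites are not independent and their intervals are too narrow. At the Zic1-Zic4 locus, the most cut region covered the Zic1 promoter (378 cut sites), followed by region 2 within Zic4, 12591 bp downstream of the Zic4 start (305). This region, whose sequence is given above, had 17.21 cut-site CPM in VLMC-like and 10.37 in astrocyte-like nuclei.

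Region 6, 14596 bp downstream of the Zic1 start (chr9:91351023-91351322) and overlapping an exon of the RefSeq annotation, had 12.46 cut-site CPM in VLMC-like nuclei (7.714 to 19.05), 16.17 times (9.572 to 26.13) the level in all other nuclei, from 21 cut sites. Region 6 lay outside the locus window, as did region 4. Region 4 had few cut sites in VLMC-like and astrocyte-like nuclei. It lay 107786 bp from the Zic4 start within an intron of Gm29478 (chr9:91476609-91476908), and of its 149 cut sites 1 was in astrocyte-like and 0 in VLMC-like nuclei. Other GABAergic nuclei had 34 (2.757 cut-site CPM, 1.909 to 3.853) and ependymal-like nuclei 6 (4.906, 1.801 to 10.68), whereas the 49 in cortical and hippocampal glutamatergic nuclei gave 1.209 cut-site CPM, near the 1.18 over all nuclei. The ratio of astrocyte-like nuclei over all others was 0.07593 (0.00191 to 0.4297). The 0 in VLMC-like nuclei allows up to 1.78 cut-site CPM, above the level of 1.196 in the rest, so a difference was not detectable there at this depth. Regions 5 (intron of Zic1), 7 (exon of Zic4) and 8 (exon of Zic1) had 129, 92 and 87 cut sites, and the ratio of VLMC-like nuclei over all others was 8.282 (4.281 to 14.73) for region 5, 2.491 (0.5042 to 7.519) for region 7 and 4.506 (1.425 to 10.95) for region 8. These ratios rest on 13, 3 and 5 cut sites in VLMC-like nuclei.

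Around the Zic2-Zic5 locus, the most cut region (3239 cut sites) was the promoter of Pcca, a neighbouring gene for a mitochondrial carboxylase subunit, outside the locus window. It was open in every class, between 18.72 and 39.91 cut-site CPM. Regions 2 and 3 lay 1142 bp upstream of the Zic2 start and at the start itself, with 422 and 305 cut sites, and astrocyte-like nuclei held 37.91% and 39.67% of them. Regions 5 and 6, in an exon of Zic5 and at its start, had 286 and 270.

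Regions 4, 7 and 8, which lay outside the locus window, were mostly cut in astrocyte-like nuclei. Region 7, 58744 bp downstream of the Zic5 start, had 144 of its 191 cut sites there (75.39%), or 13.96 cut-site CPM against 0.4055 in all other nuclei, a ratio of 34.43 (24.62 to 48.94). VLMC-like nuclei had 0 cut sites in it, which allows up to 1.78 cut-site CPM (3 cut sites). The astrocyte-like level was 7.843 times this limit, and the exact interval of the ratio began at 6.297. Ependymal-like nuclei, which line the ventricles, came next with 7.359 cut-site CPM (3.365 to 13.97). Region 8, 11794 bp downstream of the Zic5 start, had 113 of 181 cut sites in astrocyte-like nuclei (62.43%) and 1 in VLMC-like nuclei, and region 4, at the start of the gene model Gm5089 14467 bp downstream, had 209 of 304 (68.75%) and 6. With the libraries summed, the Zic5 promoter itself differed less between these classes, with 10.67 cut-site CPM in astrocyte-like and 13.65 in VLMC-like nuclei, a ratio of 0.7814 (0.4952 to 1.284). The astrocyte-like value joined 7.726 in sham and 12.85 in stroke, so this ratio describes the libraries together and not each. The regions were picked by their cut sites in all nuclei and not by class. Their distances were measured to Zic start sites only. The body of Clybl ends at chr14:122402234, nearer to region 7 than the Zic5 start is. Which gene a region acts on was not tested.

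**Figure D2:**
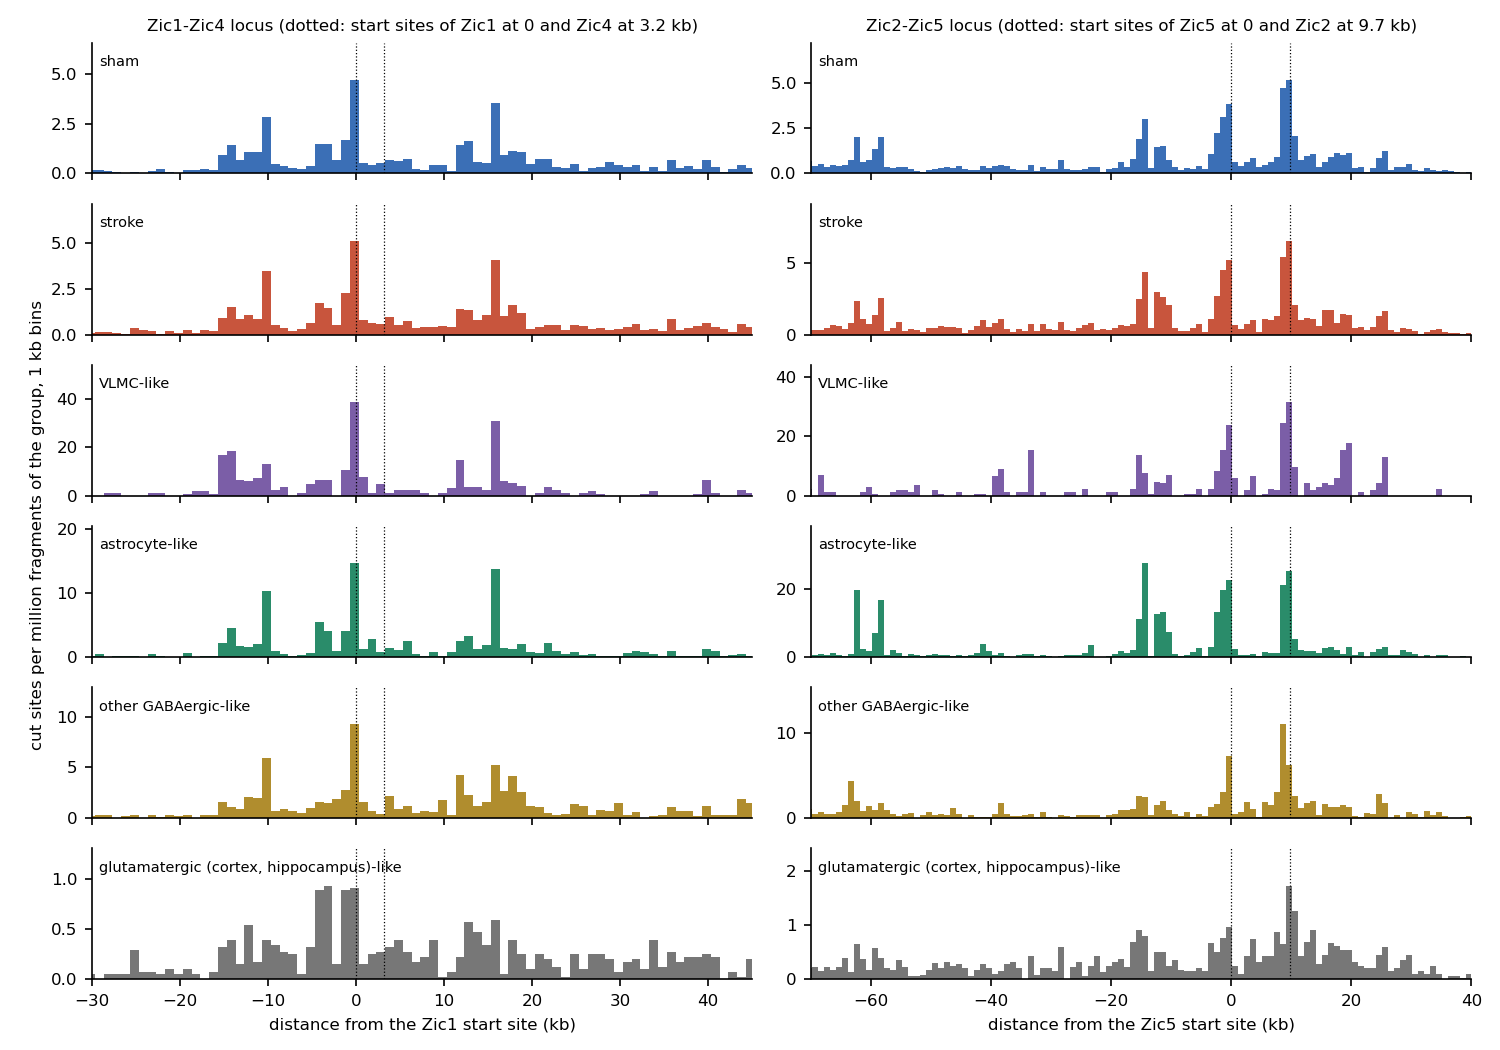
Tn5 cut sites per 1000000 fragments of each group (vertical axes, linear, with their own scale in each panel) in 1 kb bins against distance from the start of Zic1 (left) or Zic5 (right), in sham, in stroke and in 4 classes of both libraries. Dotted lines mark the start sites, 3204 bp apart on the left and 9726 bp on the right. The bins about 60 kb to the left of Zic5 stand out in astrocyte-like nuclei and are near 0 in VLMC-like nuclei.

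**Figure D3:**
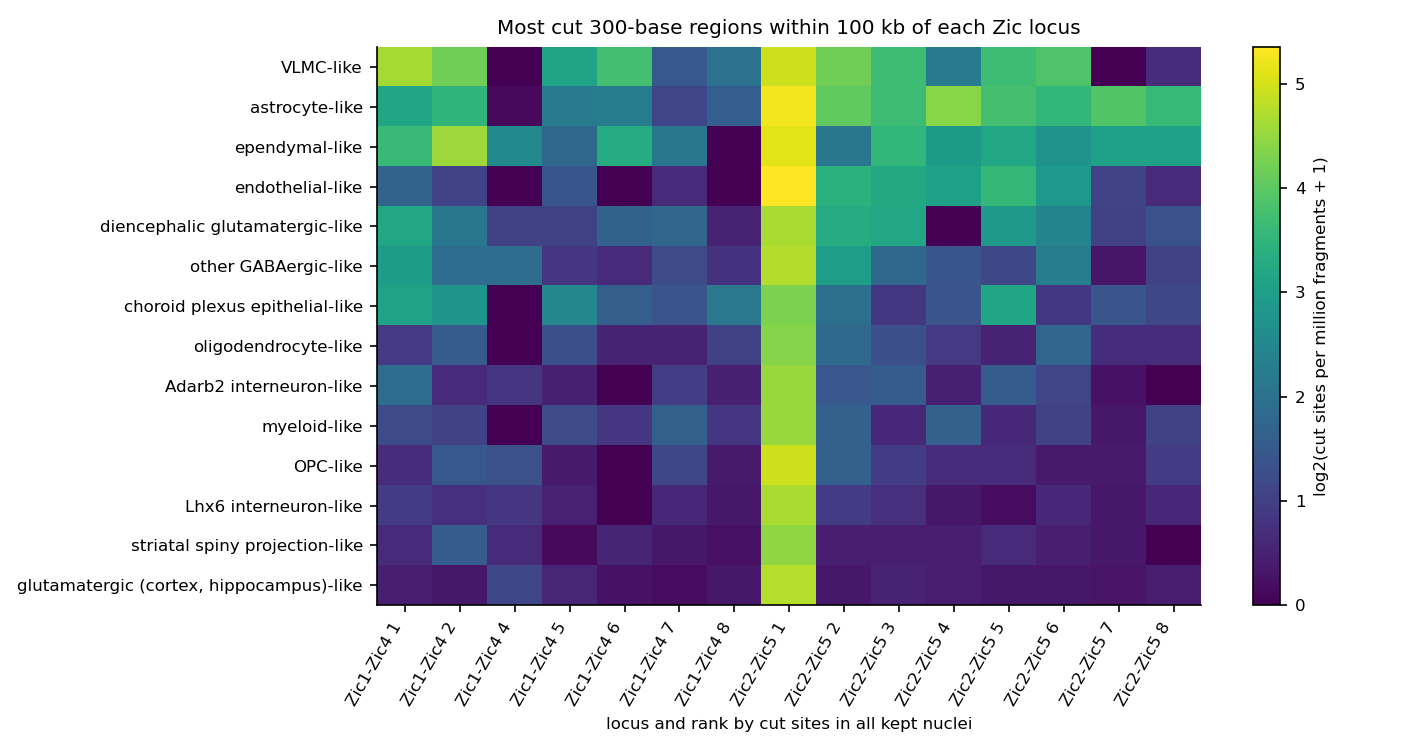
Colour gives log2(cut sites per 1000000 fragments + 1) in regions from among the 8 most cut within 100 kb of each locus (columns, numbered by their rank in cut sites over all kept nuclei) and 14 classes (rows), both libraries together. The first Zic2-Zic5 region, the Pcca promoter, is open in every row, while the seventh is bright in the astrocyte-like row, at 13.96 cut-site CPM, and dark in the VLMC-like row, at 0.

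Between the libraries, all 4 members had a higher CPM in stroke than in sham. Zic1 had 5.909 (5.366 to 6.492) in sham and 6.841 (6.153 to 7.584) in stroke, a ratio of 1.158 (1.004 to 1.334). For Zic4 the levels were 14.28 and 16.18, a ratio of 1.133 (1.034 to 1.241), and for Zic2 7.638 and 8.963, a ratio of 1.173 (1.036 to 1.329). With split windows the ratio was 1.154 (0.9994 to 1.332) for Zic1 and 1.121 (0.9967 to 1.26) for Zic4, and both intervals held 1. Zic5 had the largest ratio of the members, 1.293 (1.132 to 1.477), from 6.358 (5.794 to 6.962) in sham to 8.224 (7.468 to 9.035) in stroke.

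Of the 4 members, 0 were past 1.5-fold in either direction, with 11.5% of 20980 genes past it higher and 0.357% lower. Their log2 differences, from 0.18 (Zic4) to 0.37 (Zic5), lay between the 72.27th and the 81.95th percentile of all genes, whose median was -0.03. The whole Zic2-Zic5 locus had 16.73 in sham and 21.94 in stroke, a ratio of 1.311 (1.209 to 1.422), and the Zic1-Zic4 locus 15.4 and 17.4, a ratio of 1.13 (1.034 to 1.234). With all called barcodes the ratio turned for Zic1 (0.9229) and Zic2 (0.8889).

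The class shares differed between the libraries. Astrocyte-like nuclei were 6.601% (6.023 to 7.217) of kept nuclei in sham and 12.35% (11.45 to 13.29) in stroke, VLMC-like nuclei 2.567% and 4.61%, and other GABAergic nuclei 10.37% and 16.62%. Other classes with open Zic loci had smaller shares in stroke, with diencephalic glutamatergic nuclei at 5.149% and 1.425% and ependymal-like nuclei at 2.259% and 0.7519%. Spiny projection nuclei, with low levels of all members, were 9.198% in sham and 2.75% in stroke, and cortical and hippocampal glutamatergic nuclei 30.38% and 22.54%. Weighted to the class mix of sham, the stroke over sham ratio was 0.927 for Zic1, 0.907 for Zic4, 0.9186 for Zic2, 0.8879 for Zic5, 0.9109 for the Zic1-Zic4 locus and 0.9981 for the Zic2-Zic5 locus. This weighting was added after the data had been seen. The sham class levels at the stroke class mix gave 1.339 times the sham level for Zic1, 1.232 for Zic4, 1.277 for Zic2 and 1.302 for Zic5. The shares of the classes and the hemisphere sampled cannot be told apart from the condition.

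Within astrocyte-like nuclei, the 450 of sham and 624 of stroke, the stroke over sham ratio was 0.9279 (0.6803 to 1.269) for Zic1, 0.8676 (0.7055 to 1.068) for Zic4, 0.9504 (0.7509 to 1.205) for Zic2 and 0.9889 (0.7937 to 1.234) for Zic5. All 4 intervals held 1. Zic5, the member with the largest ratio of this class over all other nuclei, had 33.18 CPM in sham (28.01 to 39.01) and 32.81 in stroke (28.35 to 37.76). In VLMC-like nuclei, 175 of sham and 233 of stroke, the ratio was 0.7834 (0.467 to 1.324) for Zic1, 1.003 (0.71 to 1.427) for Zic4, 0.7212 (0.4206 to 1.243) for Zic2 and 0.6836 (0.3773 to 1.244) for Zic5. These intervals are wide, and differences of this size were not detectable at this depth.

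Inside the astrocyte-like class, single regions in and around the Zic2-Zic5 locus did not move together. The Zic5 promoter (region 6) had 7.726 cut-site CPM in sham and 12.85 in stroke, a ratio of 1.664 (1.097 to 2.572), from 34 and 76 cut sites. The distal region 7, outside the locus window, had 18.86 and 10.32, a ratio of 0.547 (0.3864 to 0.7705), from 83 and 61. The Pcca promoter, open in all classes, had a ratio of 0.7365 (0.5998 to 0.9044) in the same nuclei. Region 8 had 0.8731 (0.5932 to 1.289) and region 4 had 0.876 (0.6615 to 1.162). Inside the locus, region 2 had 0.8649 (0.6265 to 1.197), region 3 had 0.9549 (0.657 to 1.394) and region 5 had 1.131 (0.7868 to 1.637). The intervals of regions 2, 3, 4, 5 and 8 held 1.

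Choroid plexus epithelial-like nuclei, the cells that secrete cerebrospinal fluid, had lower levels of all 4 members in stroke. In the 142 nuclei of sham, Zic1 had 40 fragments (32.51 CPM, 23.23 to 44.27), and in the 103 of stroke it had 3 (2.556, 0.527 to 7.468), a ratio of 0.0786 (0.01556 to 0.2468). Zic4 went from 64 fragments to 10 (0.1637, 0.07496 to 0.3211), Zic2 from 14 to 4 (0.2994, 0.07177 to 0.9534) and Zic5 from 20 to 5 (0.262, 0.07684 to 0.7194). The sham and stroke intervals did not overlap for Zic1 and Zic4. Of 14661 genes in this class, 25.1% were past 1.5-fold lower in stroke and 9.85% higher. In the same nuclei the summed level of the 10 choroid plexus markers was 491.8 CPM in sham and 335.6 in stroke, with none at 0, that of the 10 ependymal markers 302.4 and 252.1, and that of the 13 VLMC markers 141.4 and 144.0, with Lum at 0 in sham. The part of these shifts in the Zic difference was not tested.

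In myeloid-like nuclei, which hold microglia and macrophages, the Zic2-Zic5 locus had 1 fragment in the 85 nuclei of sham and 54 in the 226 of stroke. The levels were 1.181 and 18.65 CPM, a ratio of 15.79 (2.715 to 634.9). Zic2 and Zic5 each had 0 fragments in sham and 19 in stroke. The stroke level was 1.851 times the 3.544 CPM that a count of 0 allows (3 fragments), and the exact interval of the ratio began at 1.364. The stroke level of both genes was 6.562 (3.951 to 10.25), and its interval held the level in all kept nuclei of stroke, 8.963 for Zic2 and 8.224 for Zic5. The myeloid markers of these nuclei summed to 862.4 CPM in sham and 1470.0 in stroke. The 13 VLMC markers summed to 93.33 and 159.6, with Col1a2, Igf2 and Foxc2 at 0 in sham, and the 13 astrocyte markers to 366.2 and 394.4. Their part in the result was not tested.

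Other GABAergic nuclei had less Zic2 in stroke, 15.76 against 11.07 CPM, a ratio of 0.7029 (0.5093 to 0.9676), and their ratio was 0.7956 (0.5566 to 1.136) for Zic1, 0.9068 (0.7294 to 1.128) for Zic4 and 0.9533 (0.6315 to 1.443) for Zic5. In the other classes the intervals of the ratio held 1 for every member and both loci, apart from Zic5 in Lhx6 interneuron-like nuclei, with 0.3643 (0.1089 to 0.9688).

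**Figure D4:**
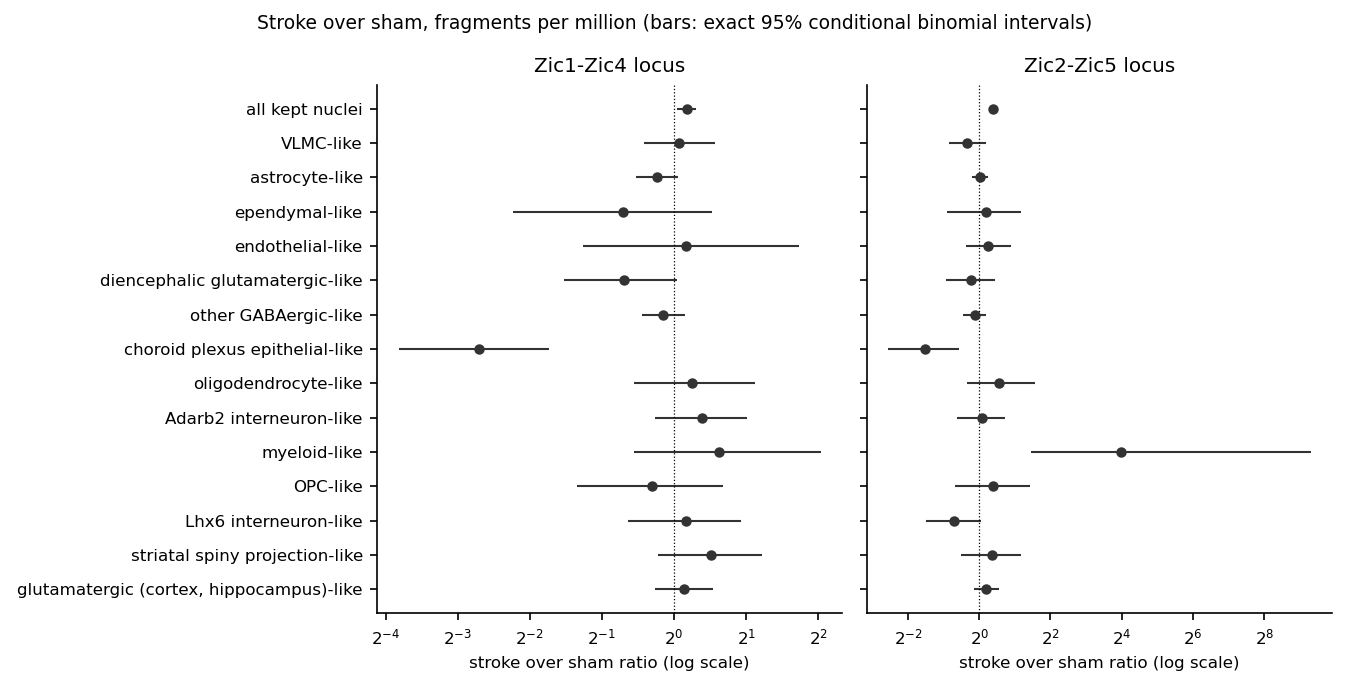
Ratio of stroke over sham CPM (log axes) at the Zic1-Zic4 locus (left) and the Zic2-Zic5 locus (right) in all kept nuclei and in 14 classes, with exact 95% conditional binomial intervals as bars. The dotted line marks 1. Choroid plexus epithelial-like nuclei lie to its left in both panels (0.1541 and 0.3493), and myeloid-like nuclei to its right at the Zic2-Zic5 locus (15.79).

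Single nuclei gave few fragments at these loci. After thinning each nucleus to 5000 fragments, which left 5218 of sham and 3838 of stroke and only 108 of the 408 VLMC-like nuclei, 132 of 9056 nuclei (1.458%, 1.221 to 1.726) had at least 2 fragments at the Zic1-Zic4 locus and 141 (1.557%, 1.312 to 1.834) at the Zic2-Zic5 locus. The shares were 1.418% in sham and 1.511% in stroke at the former and 1.399% and 1.772% at the latter. A nucleus without such fragments is not shown to be closed there. At the Zic1-Zic4 locus 12.04% (6.567 to 19.7) of VLMC-like and 3.244% (2.067 to 4.828) of astrocyte-like nuclei were positive, against 0.3397% (0.163 to 0.6238) of cortical and hippocampal glutamatergic nuclei. At the Zic2-Zic5 locus 8.322% (6.395 to 10.6) of astrocyte-like nuclei were positive, against 0.4416% (0.2353 to 0.7539) of those glutamatergic nuclei. Endothelial-like nuclei had 6.87% (3.189 to 12.64) and VLMC-like nuclei 6.481% (2.645 to 12.9) at this locus. Both intervals overlapped that of the astrocyte-like nuclei.

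Both loci were positive in 7 nuclei. At the fragment level, levels at one locus were higher in nuclei positive at the other across all nuclei. Nuclei positive at Zic1-Zic4 had 63.64 CPM at Zic2-Zic5 against 18.47 in the others, a ratio of 3.446 (2.465 to 4.699). Within astrocyte-like nuclei the ratio was 1.952 (1.14 to 3.144), or 1.628 (0.7673 to 3.067) in those of stroke alone. It was 1.553 (0.5582 to 3.487) within other GABAergic nuclei, 1.228 (0.1447 to 4.68) within diencephalic glutamatergic nuclei and 1.107 (0.3374 to 2.854) within VLMC-like nuclei, all with intervals that held 1. In the reverse direction it was 2.912 (2.013 to 4.086) over all nuclei, 1.285 (0.6821 to 2.242) within astrocyte-like nuclei and 0.8618 (0.1759 to 2.563) within other GABAergic nuclei. The intervals within other GABAergic nuclei held 1 in both directions.

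Markers of some classes with open Zic loci were higher in the positive nuclei. Positive nuclei were picked by the Zic fragments that also set the class levels, and the markers include those that set the classes. These counts therefore restate the class levels and are not a further result. Among nuclei positive at Zic1-Zic4, 11 of 13 VLMC markers, 7 of 10 choroid plexus markers, 6 of 9 diencephalic glutamatergic markers and 5 of 13 astrocyte markers were past 1.5-fold higher than in the other thinned nuclei, where 18.5% of 19803 genes were and 11.7% were past it lower. Of the astrocyte markers 1 was lower. The markers of other GABAergic neurons (1 of 12 higher) and of ependymal cells (0 of 10 higher, 2 lower) did not stand out there. Of the 12 cortical and hippocampal glutamatergic markers, 6 were past it lower and 1 higher. Among nuclei positive at Zic2-Zic5 all 13 astrocyte markers were past 1.5-fold higher, with 19.6% of genes past it and 14.0% past it lower. The counts higher and lower were 7 and 2 of 13 VLMC markers, 5 and 1 of 12 endothelial markers, 6 and 1 of 9 diencephalic markers, 4 and 0 of 10 choroid plexus markers, 2 and 2 of 12 other GABAergic markers and 2 and 2 of 10 ependymal markers. Of the 12 cortical and hippocampal glutamatergic markers, 10 were past it lower and 1 higher.

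Among relatives of the Zic genes, Gli2 (2.083-fold) and Gli3 (2.038-fold), the Hedgehog effectors, which astrocytes also express, were past 1.5-fold higher in nuclei positive at Zic2-Zic5. Of the 8 genes of the Hedgehog pathway and reported partners, 4 were past 1.5-fold higher in nuclei positive at Zic2-Zic5, where 19.6% of all genes were. These were Atoh1 (2.97-fold, 3 fragments), Mdfi (2.903-fold, 11 fragments), which encodes a binding partner of Zic proteins, Sufu (1.653-fold), the Gli inhibitor, and Ptch1 (1.553-fold), the Hedgehog receptor. At Zic1-Zic4, 1 of the 8, the signal transducer Smo (1.58-fold), was higher, where 18.5% of all genes were, and Atoh1, a factor of granule cell precursors, was past it lower with 0 fragments, too few for a difference to be detectable.

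Lists of regional genes gave mixed counts, to be read against the 18.5% of all genes past 1.5-fold higher and 11.7% lower at Zic1-Zic4 and the 19.6% and 14.0% at Zic2-Zic5. In nuclei positive at Zic1-Zic4 the median log2 difference was 0.93 over the septal list and 0.62 over the list of thalamus and habenula, against 0.10 over all genes, and at Zic2-Zic5 it was 0.01 and 0.03 against 0.09. Over the list of hypothalamus and preoptic area it was 0.52 and 0.54 at these loci, over the olfactory bulb list 0.40 and 0.27, over the cholinergic list 0.16 and 0.17 and over the cerebellar granule list 0.02 and -0.11. Of 6 septal genes, 4 were past 1.5-fold higher in nuclei positive at Zic1-Zic4, with Slc18a3 at 2.161-fold (3 fragments), Prdm16 at 2.064-fold, Sox1 at 1.977-fold and Lhx8 at 1.827-fold (5 fragments), and 2 at Zic2-Zic5, Sox1 at 3.108-fold and Prdm16 at 3.039-fold, with 1 lower. Of 9 genes of thalamus and habenula, 5 were past it at Zic1-Zic4, led by Tcf7l2 at 2.208-fold, and 4 at Zic2-Zic5, where Prkcd had 3.011-fold, Tcf7l2 2.916-fold, Lhx9 2.435-fold and Lef1 2.425-fold, and 1 was lower. Of this list, Tcf7l2, Lef1, Gbx2, Lhx9, Shox2, Prkcd and Ntng1 are also among the diencephalic glutamatergic markers counted above. The counts of these lists are therefore not separate results. Of 10 genes of hypothalamus and preoptic area, 5 were past it higher at each locus, with 1 lower at Zic1-Zic4 and 2 at Zic2-Zic5, and some of these rested on few fragments, such as Fezf1 (2.402-fold, 3 fragments) at Zic1-Zic4. Of 7 olfactory bulb genes, 3 were past it higher and 1 lower at each locus, with Th at 1.671-fold and 2.194-fold. Of 6 cerebellar granule genes, 0 were past it higher and 1 lower at Zic1-Zic4, and 2 higher and 2 lower at Zic2-Zic5. Of 5 cholinergic genes, 2 were higher and 0 lower at Zic1-Zic4, and 1 higher and 1 lower at Zic2-Zic5. The cerebellum and the olfactory bulbs were not in the tissue.

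By both loci and in both libraries, 142 of 7456 genes with at least 20 fragments in each set of positive nuclei were past 1.5-fold higher. This minimum was set in the positive nuclei, so some genes may have met it only because they were high there, and the count is a description. The 10 with the largest fold were Arhgef19, Slc9a3r1, Angptl4, Amotl2, Ndrg2, Plpp3, Zcchc24, Pdlim4, Clybl and Gas1. Arhgef19, which encodes a guanine nucleotide exchange factor, was 2.55-fold higher at Zic1-Zic4 and 5.308-fold at Zic2-Zic5. Ndrg2 and Plpp3, genes that astrocytes express, were 3.5-fold and 3.747-fold higher at Zic2-Zic5. Gas1 encodes a Hedgehog co-receptor and was 2.513-fold and 2.975-fold higher. Clybl, on chromosome 14 beside Zic5, was 2.03-fold higher in nuclei positive at the chromosome 9 locus, and 3.73-fold in those positive at the locus beside it.

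Within the other GABAergic nuclei, a class with Zic loci open at an intermediate level, the 52 nuclei positive at either locus were compared with the 916 others. The genes with the largest fold among those with at least 20 fragments in the positive nuclei, a minimum that genes high there meet more easily, were Nox4 (5.796-fold, 25 fragments), Clybl (4.7-fold), Amotl2 (3.907-fold) and Trpc5 (3.848-fold). Of the listed regional genes, 3 of 4 cholinergic genes measured, 3 of 6 hypothalamic genes, 2 of 5 septal genes, 1 of 6 olfactory bulb genes, 1 of 6 genes of thalamus and habenula and 1 of 4 cerebellar granule genes were past 1.5-fold higher, where 17.2% of 16262 genes were. Past it lower were 1 septal gene, 2 olfactory bulb genes and 1 gene of thalamus and habenula, with 17.5% of all genes. Among those higher were Isl1 at 1.924-fold (6 fragments), Magel2 at 2.565-fold (7 fragments) and Prdm16 at 2.157-fold (99 fragments). Gli2 and Gli3 were lower here, at 0.5862 and 0.5407 of the level in the other nuclei, from 10 and 9 fragments. Of the 7 relatives of the Zic genes, 1 was past 1.5-fold higher and 2 lower. The list of the Hedgehog pathway and reported partners went the other way, with 3 higher and 0 lower of 7 measured. These sums are small and no test was made.

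Within astrocyte-like nuclei, the 78 positive nuclei had 1.633 times the Tcf7l2 level and 1.572 times the Prkcd level of the 631 others, and 4.167 times that of Lhx9 (8 fragments). These are the 3 of 6 measured genes of the thalamus and habenula list past 1.5-fold higher, where 12.4% of 15341 genes were. Irx1 of the same list was past it lower, with 0 fragments in the positive nuclei, where 13.8% of genes were. The counts higher and lower were 0 and 1 of 4 septal genes, 1 and 1 of 3 hypothalamic genes, 2 and 0 of 6 olfactory bulb genes, 1 and 2 of 5 cerebellar granule genes and 1 and 1 of 4 cholinergic genes. For the Hedgehog pathway and reported partners they were 0 and 1 of 6 genes measured. The excess of that list over all nuclei positive at Zic2-Zic5 was thus not seen within this class. For the relatives of the Zic genes they were 1 and 0 of 7.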

How the data were processed

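Single-nucleus ATAC-seq was analysed from 1 sham and 1 stroke library. The authors ran Cell Ranger ATAC 2.1.0 with mm10, which collapsed duplicates and moved fragment ends to the Tn5 cut sites, and deposited raw counts that were not normalized. These are, per the file headers, the count of read pairs behind each fragment and, for each barcode, the counts of passing fragments, of those in peaks and of those near start sites. Peaks entered only through the deposited counts of fragments in them. The authors' class labels were not used here, so a difference from the study may come from rebuilt classes. The members, gene lists and tests were chosen with earlier results of these data known.

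Barcodes called as cells with over 20% of fragments in peaks were kept. Each fragment overlapping a window was counted once, per 1000000 kept fragments (CPM). Nuclei were embedded by latent semantic indexing of 100000 tiles of 5 kb, with 200 kb around the Zic loci left out (numpy 2.4.6, scipy 1.17.1, scikit-learn 1.9.0, Python 3.11.15). A nucleus was given the class with the largest excess of marker fragments over it and its 30 nearest nuclei, past 0.5 on the log2 scale. This scoring was chosen after the data had been examined, because markers of single nuclei were sparse, and without regard to the Zic genes. A pericyte gate failed its check on held-out markers and was left unnamed. In the spiny projection class the held-out markers of other GABAergic neurons were raised as much as its own. Doublets were not removed, and the 42 barcodes found in both libraries were kept in each.

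A gene was called past 1.5-fold with at least 20 fragments in the nuclei compared and 0.5 added to each sum. Named genes were the members, listed genes past 1.5-fold, largest first and at most 4, and the 10 leading genes of each ranking. A few items named by this rule, and 1 region, are not reported here. Scripts were tested on simulated data. Alternatives were all called barcodes, 1000 to 100000 peak fragments, scaling to fragments near start sites, promoters alone, thinning, leaving out the deepest 5% of nuclei and a stricter gate. A gate of single nuclei, the sham class mix and split Zic1 and Zic4 windows were added after the data had been seen.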

Additional observations from a re-analysis of the deposited data

Results flagged for a closer look

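Stroke over sham ratios of some members went in opposite directions in different classes, each with an interval that left out 1, and the differences between classes were not tested. The intervals were not adjusted for the number of members and classes looked at. For Zic2 the stroke level in myeloid-like nuclei was 1.851 times the limit that 0 fragments in sham allow (the exact interval of the ratio began at 1.364), but the ratio was 0.7029 in other GABAergic nuclei and 0.2994 in choroid plexus epithelial-like nuclei. For Zic5 the values in myeloid-like nuclei were the same, 1.851 and 1.364, but the ratio was 0.3643 in Lhx6 interneuron-like nuclei (25 fragments in sham and 5 in stroke) and 0.262 in choroid plexus epithelial-like nuclei. For the whole Zic2-Zic5 locus the ratio was 15.79 in myeloid-like nuclei, resting on 1 fragment in sham, and 0.3493 in choroid plexus epithelial-like nuclei.

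In astrocyte-like nuclei, the Zic5 promoter (1.664) and the region 58744 bp downstream of the Zic5 start (0.547) also went in opposite directions between the libraries. That difference was not tested either.

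Zic fragments were also present in barcodes outside the comparisons. Called barcodes with 20% or less of their fragments in peaks had 16.5 CPM at the Zic1-Zic4 locus and 12.75 at the Zic2-Zic5 locus in sham (162 barcodes), and 13.79 and 11.9 in stroke (3686 barcodes). Barcodes not called as cells had 16.54 and 17.92 CPM in sham, near the 15.4 and 16.73 of kept nuclei, and 11.19 and 11.43 in stroke, against 17.4 and 21.94.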

How the results depend on the processing

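No paired analysis was possible because there was 1 library for each condition. Over 12 results, 58 of 87 alternatives left the value within the counting interval first reported and 18 moved it out. The other 11 turned the direction of a value whose interval had left out 1. A further 6, counted among the former groups, crossed 1 where the interval had held it. Of these, the share positive at both loci had a ratio of 0.6126 with all called barcodes, against 1.02, and the astrocyte-like level of Zic5 was 0.8954 of the highest other class with promoters alone, against 1.111.

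With all called barcodes, the stroke over sham ratio was 0.9229 for Zic1, 0.8889 for Zic2, 1.005 for Zic4, 1.068 for Zic5 and 1.075 for the Zic2-Zic5 locus, and the share of nuclei positive at Zic1-Zic4 had a ratio of 0.7395. The VLMC-like level was then 0.693 of the highest other class for Zic1, 0.7221 for Zic4 and 0.4083 for Zic2. With the class mix of sham the ratios were 0.927 (Zic1), 0.9186 (Zic2), 0.907 (Zic4), 0.8879 (Zic5), 0.9109 (Zic1-Zic4 locus) and 0.9981 (Zic2-Zic5 locus). Scaled to fragments near start sites they were 1.243 for Zic4, 1.24 for the Zic1-Zic4 locus and 1.439 for the Zic2-Zic5 locus.

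With promoters alone, the ratio for Zic4 was 1.392, the positive share at Zic1-Zic4 had a ratio of 6.798 (10 of 3838 nuclei against 2 of 5218) and the VLMC-like level of Zic4 was 1.357 times the next class. The share positive at both loci could not be computed with promoters alone, since no nucleus was positive. With the stricter gate, the highest class had 1.371 (Zic1) and 1.307 (Zic4) times the next, and the astrocyte-like level of Zic5 was 0.6831 of the ependymal-like level. With a gate of single nuclei, the VLMC-like level was 0.9886 (Zic1), 0.4449 (Zic2) and 1.013 (Zic4) times that of astrocyte-like nuclei, and the astrocyte-like level of Zic5 was 2.218 times that of VLMC-like nuclei. After thinning, the latter was 1.676. The cause of these shifts was not tested.

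Depth limits the levels in small classes. Under 20 fragments per gene in a class, as for Zic1 in choroid plexus nuclei of stroke, a level is known only within a wide interval, and 1 library per condition leaves the spread between animals unknown.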
